A study of Mus musculus with 7 samples.

Results

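The 9 genes P2ry12, Tmem119, Cx3cr1, Sall1, P2ry13, Gpr34, Siglech, Olfml3 and Selplg mark homeostatic microglia, the resting state of the resident macrophages of the brain. They were taken by symbol from the gene table of the deposited matrices, where all 9 were found among 32285 genes. Their unique molecular identifiers (UMIs, 1 per captured transcript) were followed in 7 single-cell RNA libraries of whole mouse brain tumours, in microglia, in macrophages and within single microglia ranked by their interferon or major histocompatibility complex (MHC) class II genes.

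All tumours grew from the NSCG-mCherry line, labelled EGFRvIII+ and Arf/Ink4a-/-, in wild-type C57BL/6 mice of 7 to 10 weeks, and were collected at about day 14, from at least 2 mice pooled per library. One library came from untreated tumours (UT). Another 2 came from mice given 10 mg/kg of an IgG2b isotype control (IgG), for some experiments with the diluent of the gavage. A further 2 came from mice given 5 mg/kg B20, an antibody to VEGF, with 10 mg/kg anti-PD-L1 every 3 days (BP), and 1 from mice given both antibodies with 10 mg/kg IPI-145 by daily gavage (BPI). The last came from mice given 2 doses of 100 µg of an anti-CD40 agonist 5 days apart (CD40), and the labels do not settle whether these mice also had a vaccine of dendritic cells. Wild-type hosts keep their own microglia and blood-derived macrophages. UT, BPI and CD40 are single libraries, so p-values measure only the spread between a few pooled libraries, and a cell suspension made by digestion at 37 C may differ from the tissue.

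As background, microglia settle in the brain before birth and hold their resting programme under TGF-beta from their surroundings and the transcription factor Sall1. P2ry12 and P2ry13 are receptors for purine nucleotides released by other cells, and P2ry12 guides microglial processes towards injury. Gpr34 is a lysophosphatidylserine receptor, and Cx3cr1 is the receptor for the chemokine Cx3cl1, which neurons display. Tmem119 is a membrane protein used to tell microglia from other macrophages, Siglech is a sialic acid-binding lectin shared with plasmacytoid dendritic cells, and Selplg (PSGL-1) is the P-selectin ligand of most leukocytes. Olfml3 is a secreted matrix protein. Interferon or disease-associated states of microglia are known for lower levels of several of these genes.

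In GRCm38, P2ry12 (ENSMUSG00000036353) lay at chr3:59216272-59262871 and P2ry13 (ENSMUSG00000036362) at chr3:59207892-59210882. Both are on the minus strand inside Med12l, which is transcribed from the plus strand, and 5389 bases separate them. Tmem119 (ENSMUSG00000054675) at chr5:113793729-113800516 and Selplg (ENSMUSG00000048163) at chr5:113818536-113832644 were also neighbours on the minus strand, 18019 bases apart. Gpr34 (ENSMUSG00000040229) lay at chrX:13632089-13640858 inside Cask, on the other strand, and Cx3cr1 (ENSMUSG00000052336) at chr9:119901616-120069879 overlapped 9 annotated genes. Sall1 (ENSMUSG00000031665) lay at chr8:89027235-89044162, Siglech (ENSMUSG00000051504) at chr7:55768178-55778925 and Olfml3 (ENSMUSG00000027848) at chr3:103722222-103738001. Tags near the 3′ end were counted, so each level is compared between cells and libraries and not between genes.

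The RefSeq promoter table (GRCm38.p6) held 6 of the 9 members: P2ry12, Cx3cr1, Sall1, P2ry13, Siglech and Olfml3. The 250 bases before the start of 5 of them are shown to set 3 members that fell in single microglia rich in interferon-response transcripts (P2ry12, Cx3cr1 and Siglech) beside 2 that did not pass that test (P2ry13 at -0.32 and Olfml3 at 0.06 on the log2 scale). The difference between genes was not tested. Capitals mark GAGGAA or AGGAAG, the core letters of sites of PU.1, the lineage factor of macrophages, on either strand, and the core of interferon response elements, GAAA repeated after any 2 bases, was searched as well. Coordinates are chr3:59262986-59263235 for P2ry12, chr9:120068297-120068546 for Cx3cr1, chr7:55767934-55768183 for Siglech, chr3:59210883-59211132 for P2ry13 and chr3:103738002-103738251 for Olfml3. Siglech is read from the plus strand and the others from the minus strand, all 5′ to 3′.
P2ry12: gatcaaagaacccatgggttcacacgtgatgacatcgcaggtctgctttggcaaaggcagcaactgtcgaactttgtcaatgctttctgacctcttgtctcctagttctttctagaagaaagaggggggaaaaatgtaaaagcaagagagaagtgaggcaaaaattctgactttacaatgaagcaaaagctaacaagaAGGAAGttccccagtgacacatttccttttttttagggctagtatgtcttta
Cx3cr1: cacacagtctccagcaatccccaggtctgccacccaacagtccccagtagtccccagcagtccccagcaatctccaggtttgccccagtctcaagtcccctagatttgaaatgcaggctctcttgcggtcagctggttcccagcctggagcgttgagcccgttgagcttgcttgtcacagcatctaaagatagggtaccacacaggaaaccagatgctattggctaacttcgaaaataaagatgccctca
Siglech: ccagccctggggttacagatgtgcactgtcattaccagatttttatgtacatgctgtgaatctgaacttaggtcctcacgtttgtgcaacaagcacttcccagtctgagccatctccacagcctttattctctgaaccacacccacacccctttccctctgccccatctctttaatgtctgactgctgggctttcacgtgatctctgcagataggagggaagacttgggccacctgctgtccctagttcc
P2ry13: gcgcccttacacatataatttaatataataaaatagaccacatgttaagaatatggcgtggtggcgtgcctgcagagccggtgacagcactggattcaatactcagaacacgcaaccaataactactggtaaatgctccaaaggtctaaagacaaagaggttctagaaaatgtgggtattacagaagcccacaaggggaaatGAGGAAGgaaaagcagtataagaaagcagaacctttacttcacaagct
Olfml3: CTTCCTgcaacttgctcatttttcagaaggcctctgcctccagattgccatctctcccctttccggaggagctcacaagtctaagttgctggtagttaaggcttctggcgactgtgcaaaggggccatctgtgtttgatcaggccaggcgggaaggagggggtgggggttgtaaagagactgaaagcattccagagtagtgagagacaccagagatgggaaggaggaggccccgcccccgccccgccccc
AGGAAG began 52 bases before the P2ry12 start. In P2ry13, GAGGAA and AGGAAG, which share 5 letters, overlapped at 48 and 47 bases before the start. Olfml3 held AGGAAG on the other strand at the far edge of its window, 250 bases away, 1 of 3 Sall1 starts held it at 181 bases, and Cx3cr1 and Siglech held none. The interferon core was found in none of the 6 genes' windows. Over all 32851 promoters of the table, 23.3% held GAGGAA, 29.5% held AGGAAG and 2.98% held the interferon core in a window of this length. These matches describe letters and not binding.

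Libraries held 68997476 to 186793886 UMIs, and 48588 cells were kept. Cells were clustered without the 9 members among the variable genes, and 2336 cells in 3 clusters were called microglia-like, from 51 in UT to 864 in CD40. They made up 0.949% of the UT library, 2.26% to 2.88% in IgG replicate 1, both BP libraries and BPI, 9.53% in IgG replicate 2 and 11.1% in CD40. Microglia markers outside the 9 members summed to 3606 to 8834 CPM in this class of cells (CPM being a gene's UMIs scaled to the same total in every class and library). Ccr2, the receptor of blood monocytes, was at 0 in 5 of 7 libraries and at most 1.92 CPM, and the 11 monocyte/macrophage markers summed to 495 to 1010 CPM. Another 3431 cells were monocyte/macrophage-like, with Ccr2 at 79.9 to 229 CPM. Other markers of this class were far less even between libraries. The monocyte marker Ly6c2 was at 3263 CPM in UT, 902 and 43.5 CPM in IgG, 865 and 1837 CPM in BP, 2552 CPM in BPI and 62.6 CPM in CD40. BP replicate 1 and UT stood apart before any result: 215 of the 218 microglia-like cells of BP replicate 1 and 31 of the 51 of UT lay in 1 cluster, cluster 28, in which 6 of 11 monocyte/macrophage markers were raised as well as 7 of 10 microglia markers. Pairs of libraries shared at most 21 cell barcodes.

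Summed over the microglial clusters, the level of most members was lowest in BP replicate 1 and highest in BP replicate 2. These class levels thus had no common direction under anti-VEGF with anti-PD-L1. P2ry12 spanned 306 to 1567 CPM between those 2 libraries. Counted without UT, BP replicate 1 was the lowest of 6 libraries for 8 of 9 members, all but Sall1, and 20.2% of the 12308 genes tested were lowest there. BP replicate 2 exceeded IgG replicate 1, of the adjacent library number, for 9 of 9 members, against 45.2% of all genes. The BP libraries lay on both sides of IgG: 0 members were below both IgG libraries in both BP libraries, against 18.5% of all genes. The main cluster 13 held 133 of 159 microglia-like cells in BP replicate 2 and 0 of 218 in BP replicate 1. In IgG it held 93 of 139 and 469 of 714. Within cluster 13 every member was lower in BP replicate 2 than in IgG replicate 2. Against IgG replicate 1, Cx3cr1, Sall1, P2ry13 and Selplg were higher and the others lower (P2ry12 1850 against 1871 CPM). The part of this cluster mix in the class levels was not tested.

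Among the receptors, P2ry12 measured 801 CPM in UT, 976 and 1203 CPM in the IgG libraries, 306 and 1567 CPM in the BP libraries, 962 CPM in BPI and 1038 CPM in CD40. The exact 95% Poisson intervals, which cover counting error only, ran from 288 to 324 CPM in BP replicate 1 and from 1460 to 1680 CPM in BP replicate 2. Both BP values thus lay outside the IgG range, on opposite sides, while BPI and CD40 lay near or inside it. P2ry13, the neighbouring nucleotide receptor, measured 181 CPM in UT, 214 and 327 CPM in IgG, 84.1 and 396 CPM in BP, 274 CPM in BPI and 259 CPM in CD40. It followed the same order at both ends. Gpr34 had the widest span, with 395 CPM in UT, 827 and 843 CPM in IgG, 94.8 and 1243 CPM in BP, 589 CPM in BPI and 746 CPM in CD40. Its level in BP replicate 1 was 0.0763 of that in BP replicate 2, and UT, BPI and CD40 also lay below both IgG libraries. Cx3cr1 measured 1386 CPM in UT, 2154 and 2534 CPM in IgG, 1258 and 3071 CPM in BP, 2037 CPM in BPI and 2566 CPM in CD40. UT and BP replicate 1 were low for the chemokine receptor and the other 5 libraries lay higher without overlap.

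Tmem119 broke this order at the top. Its level was highest in UT, at 1007 CPM, followed by 831 CPM in BP replicate 2, while IgG gave 550.3 and 670.0 CPM, BP replicate 1 308 CPM, BPI 662 CPM and CD40 659.7 CPM. Siglech measured 337 CPM in UT, 496 and 587 CPM in IgG, 249 and 867 CPM in BP, 558 CPM in BPI and 553 CPM in CD40, so UT and BP replicate 1 were again below the rest. Selplg, by contrast, was high in UT, at 1164 CPM, beside 662 and 950.1 CPM in IgG, 305 and 1272 CPM in BP, 839.6 CPM in BPI and 985 CPM in CD40.

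The secreted protein gene Olfml3 was steadiest, apart from BP replicate 1 and UT. It measured 481 CPM in UT, 376 and 342 CPM in IgG, 171 and 423 CPM in BP, 359 CPM in BPI and 350.2 CPM in CD40. Sall1, the transcription factor, was the only member whose lowest library was UT, at 70.8 CPM. It gave 132 and 174 CPM in IgG, 152 and 202 CPM in BP, 141 CPM in BPI and 159 CPM in CD40, so BP replicate 1 lay inside the IgG range for this gene alone.

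**Figure D1:**
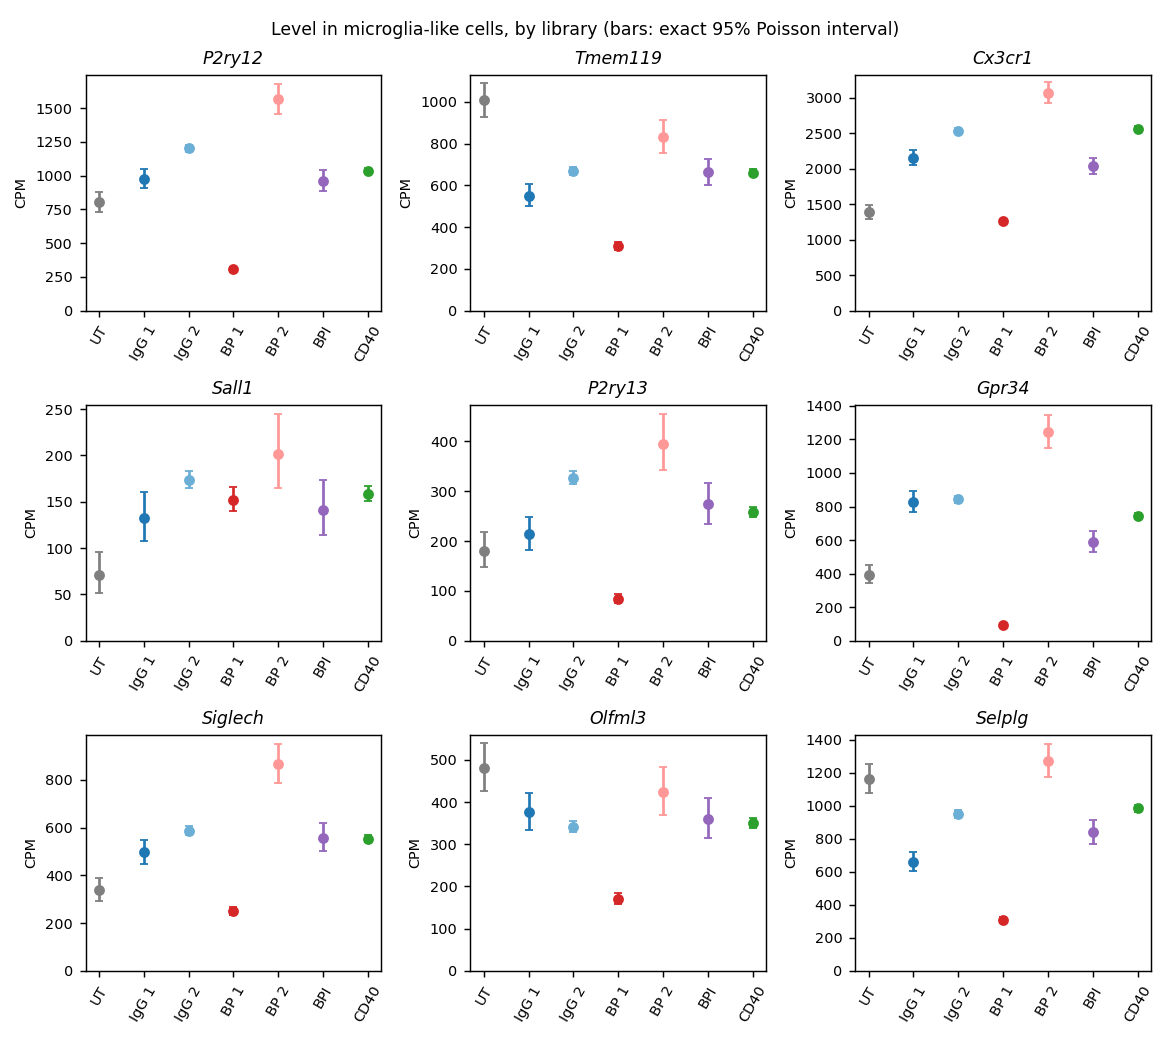
Level of each of the 9 genes in microglia-like cells, in CPM (vertical axis), in the 7 libraries (horizontal axis), with exact 95% Poisson intervals as bars. BP replicate 1 is lowest in 8 of 9 panels and BP replicate 2 is highest in 7 of 9.

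Within sets of adjacent library numbers, the ratio of BP replicate 2 to IgG replicate 1 ran from 1.13 for Olfml3 to 1.92 for Selplg, with 1.61 for P2ry12. BPI against the same IgG library gave 0.712 for Gpr34 up to 1.28 for P2ry13, and CD40 against IgG replicate 2 gave 0.791 for P2ry13 up to 1.04 for Selplg. CD40 and its IgG neighbour were thus the closest pair. Free RNA made up an estimated 29.2% of the UMIs of microglia-like cells in IgG replicate 1, against 6.07% to 12.7% in the other libraries. With it subtracted, P2ry12 stood at 1374 CPM in IgG replicate 1 and 1794 CPM in BP replicate 2, while Olfml3 turned, at 528 and 485 CPM. Shares of cells at even depth had BP replicate 1 lowest for P2ry12, Gpr34, Tmem119 and Olfml3, as the levels did, while the order of the other libraries was not the same in both measures. For Olfml3, BP replicate 2 was the second highest by level and the second lowest by share, at 30.8%. After every cell was thinned to 1000 UMIs, P2ry12 was detected in 54.9% of microglia-like cells in UT, 68.3% and 69.7% in IgG, 30.7% and 76.1% in BP, 59.7% in BPI and 63.3% in CD40. T-like cells, which should lack P2ry12, gave 0% to 1.76% in the same measure. Without thinning, P2ry12 was seen in 86.9% to 96.9% of microglia-like cells, at median depths of 2889 to 14995.5 UMIs. Gpr34 was detected at 1000 UMIs in 57.6% and 62.0% of cells in IgG and in 12.8% and 69.2% in BP, so the library with the low summed level also had fewer cells with a UMI.

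No member passed the test between treatment groups in microglia. In edgeR's quasi-likelihood test on summed counts with Benjamini-Hochberg adjustment, 0 of 12308 genes (0%) passed an adjusted p of 0.05 for BP, BPI or CD40 against IgG or for BPI against BP, and 0 of 9705 genes (0%) for UT against IgG. At an unadjusted p under 0.05 there were 561 genes for BP, 418 for BPI, 40 for CD40, 399 for BPI against BP and 789 for UT, none of them members, and DESeq2 called 38, 21, 0, 2 and 65 genes. The members' log2 differences for BP against IgG ran from -0.32 (SE 1.02) for Gpr34 to 0.21 (SE 0.35) for Sall1, with 2 positive, 7 negative and a median of -0.11 against -0.045 over all genes. For BPI they ran from -0.35 to 0.27 and for CD40 from -0.15 to 0.30. UT against IgG gave the largest ones, from -1.02 (SE 0.46, edgeR adjusted p = 0.61) for Sall1 to 0.82 (SE 0.69, edgeR adjusted p = 0.71) for Tmem119. On simulated counts of 11355 genes the BP comparison recovered 0% of genes changed 2-fold and 65% of those changed 4-fold, so moderate differences were not detectable. In the real counts far larger differences did not pass either, such as the class II gene H2-Eb1 at 8.79 (SE 1.56) for BP. The 65% thus need not hold for these libraries.

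Among the alternatives run, members were called in microglia for BP against IgG only without BP replicate 2. Members were also called for BPI against BP in a fit with a library left out. With no filter on low counts edgeR called 309 genes with all libraries, 0 of them members. Without BP replicate 2, when BP is a single library assumed to vary like the others, 672 of 13245 genes (5.07%) passed for BP against IgG in edgeR's quasi-likelihood test. Among them were P2ry12 at -1.76 (SE 0.37, adjusted p = 0.012), P2ry13 at -1.63 (SE 0.38, adjusted p = 0.023) and Gpr34 at -3.06 (SE 0.39, adjusted p = 2.60e-04). Without BP replicate 1 there were 13 calls and 0 members.

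Of the other microglial programmes, MHC class II sums set BP replicate 1 and UT apart, while interferon sums were high in BPI as well. MHC class II genes, which present antigen to T cells, summed to 24759 CPM in BP replicate 1 and 22567 CPM in UT, against 173 to 2806 CPM in the other 5. The 40-gene interferon response list summed to 9565 CPM in UT, 3157 and 999 CPM in IgG, 6547 and 2616 CPM in BP, 8133 CPM in BPI and 979 CPM in CD40. For BP against IgG, 10 of 10 class II genes were positive with a median log2 difference of 4.52 (Cd74, the invariant chain, 6.24, SE 1.47) and 36 of 38 interferon genes with a median of 1.54, while 0 of either list passed the test. Other homeostatic genes had a median of 0.03 over 23 genes (Cst3, a secreted protease inhibitor, -0.10). Disease-associated genes had a median of -0.83 over 19 genes (Apoe, a lipid carrier, -1.32; Ctsd, a lysosomal protease, -0.97). TGF-beta signalling genes had a median of 0.21 (the receptor Tgfbr1, 0.20) and purine receptors and enzymes 0.51 (the ectonucleotidase Entpd1, 0.88, SE 0.36), with none passing the test. Immediate-early and stress genes, a sign of dissociation, ran from 2318 CPM in BP replicate 1 to 21626 CPM in BP replicate 2, and median UMIs per microglia-like cell from 14995.5 to 2914 in the same 2 libraries. Treatment and library cannot be told apart in single libraries, and the part of depth and dissociation in the member levels was not tested.

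Across cell classes, some of the 9 genes were found mostly in microglia and others also in leukocytes. P2ry12 reached at most 10.8 CPM in T-like and 3.86 CPM in tumour-like cells. Outside microglia-like and macrophage-like cells, P2ry12 was at 34.6 to 68.1 CPM in plasmacytoid dendritic-like cells of 3 libraries, at 75.6 CPM in neutrophil-like cells of BP replicate 1, which rests on 4 UMIs, and at up to 121 CPM in cells that stayed unnamed (UT). Siglech was higher in plasmacytoid dendritic-like cells, at 1470 to 2890 CPM in 3 libraries, than in microglia-like cells of any library. Selplg was found at 243 to 445 CPM in T-like, 319 to 607 CPM in NK-like and 218 to 720 CPM in dendritic-like cells. It was higher in plasmacytoid dendritic-like cells, at 940 CPM in UT, 760 CPM in BP replicate 1 and 510 CPM in BPI. Neutrophil-like cells of BP replicate 1 held 416 CPM. Sall1 was also found in oligodendrocyte-like cells at 45.8 and 54.6 CPM, in astrocyte-like cells at 18.3 and 22.3 CPM and in tumour-like cells at 0.17 to 12.0 CPM.

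**Figure D2:**
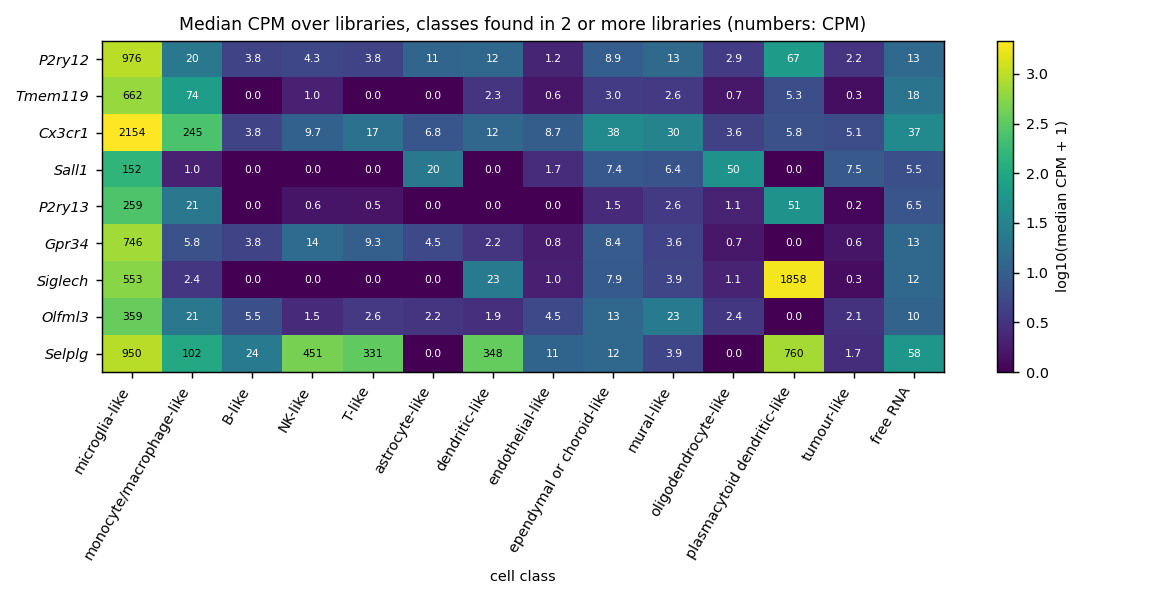
Heatmap of the median level of each gene over libraries in CPM (log colour scale), by cell class and in free RNA. Classes with at least 20 cells in more than 1 library are shown. By their median, microglia-like cells are highest for every gene except Siglech, which is highest in plasmacytoid dendritic-like cells at 1470 to 2890 CPM.

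Over 66 class-by-library sums, those of unnamed cells included, the single members correlated with the mean of all 9 (log2 of CPM plus 1) at r = 0.937 for P2ry12, 0.920 for P2ry13, 0.915 for Tmem119 and 0.891 for Cx3cr1, down to 0.648 for Sall1 and 0.588 for Selplg. The 5 other genes most like that mean, of 2190 with at least 50 CPM in the microglia-like cells of every library, were Gal3st4 (r = 0.906), Gm2629 (r = 0.902), Trem2 (r = 0.867), Ptgs1 (r = 0.864) and Il1a (r = 0.861). Gal3st4 is a sulfotransferase, Trem2 a lipid receptor of microglia, Ptgs1 a cyclooxygenase and Il1a a cytokine. The sums share libraries and depth, each member is part of the mean, and the r values are a description.

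Within microglia the members were lower in the cluster led by Spp1, osteopontin, than in the main cluster. In the 5 libraries with at least 20 cells of both, P2ry12 measured 1871 and 2417 CPM in IgG, 1850 CPM in BP replicate 2, 1502 CPM in BPI and 2018 CPM in CD40 in the main cluster 13. In the Spp1-led cluster 17 it measured 447 and 460 CPM, 614 CPM, 570 CPM and 456 CPM. The clusters did not overlap for P2ry12. As a share of cluster 13, cluster 17 held a median of 23.9% for P2ry12, 31.5% for P2ry13, 31.2% for Gpr34, 39.9% for Cx3cr1, 31.2% for Tmem119, 21.7% for Siglech, 31.7% for Selplg and 39.1% for Sall1. Olfml3 kept 78.3% (45.2% to 91.4%), the most of the 9. In cluster 28, P2ry12 was at 306 CPM in BP replicate 1 and 763 CPM in UT, Gpr34 at 94.9 and 280.1 CPM and Selplg at 306 and 1126 CPM, while Cx3cr1 was at 1258 and 1490 CPM. The clusters were drawn from the same cells, so these values describe them and are no test.

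In macrophages every member was below its microglial level in each library, and the share of that level differed by gene and library. Siglech and Sall1 were nearly absent: Siglech at 0 to 6.37 CPM and Sall1 at 0 to 1.95 CPM. Cx3cr1, which monocytes are known to express, was found at 35.0 to 926 CPM, and Selplg, which most leukocytes carry, at 92.1 to 191 CPM. The median share of the microglial level over 7 libraries was 0.404% for Siglech, 0.897% for Sall1, 2.54% for P2ry12, 4.19% for Gpr34, 7.33% for Tmem119, 7.35% for Olfml3, 8.34% for Cx3cr1, 11.2% for Selplg and 11.7% for P2ry13. The highest share in a library was 36.5% for Cx3cr1, 31.2% for Selplg, 23.9% for Tmem119 and 23.5% for P2ry13, and 8.31% for P2ry12.

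P2ry12 measured 20.4 CPM in macrophage-like cells of UT, 15.6 and 55.4 CPM in IgG, 25.4 and 8.63 CPM in BP, 13.6 CPM in BPI and 35.2 CPM in CD40. Tmem119 measured 73.9 CPM in UT, 90.2 and 160 CPM in IgG, 21.5 and 48.5 CPM in BP, 29.6 CPM in BPI and 134 CPM in CD40. IgG and CD40 were above the treated BP and BPI libraries for Tmem119, without overlap. Cx3cr1 measured 116 CPM in UT, 444 and 926 CPM in IgG, 35.0 and 245 CPM in BP, 83.6 CPM in BPI and 548 CPM in CD40. Gpr34 measured 3.63 CPM in UT, 34.7 and 105 CPM in IgG, 5.79 and 5.31 CPM in BP, 3.74 CPM in BPI and 33.8 CPM in CD40. Both receptors again split the libraries into IgG with CD40 above and BP, BPI and UT below. Selplg was flat at 92.1 to 106 CPM in 6 libraries and reached 191 CPM in UT. The remaining nucleotide receptor P2ry13 ran from 15.9 to 63.3 CPM and Olfml3 from 11.9 to 54.6 CPM. The class differed in its make-up between libraries, with Ly6c2 lowest in IgG replicate 2 and CD40. The part of this make-up in the member levels was not tested.

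The free RNA of the droplets would give a small share of the level of most members. It was measured in barcodes of at most 100 UMIs, and its share of a macrophage-like cell's UMIs, set from tumour and T-cell markers, was 7.64% to 12.2%. Of the macrophage level, free RNA at that share would give 4.21% to 19.4% for P2ry12, 2.16% to 7.12% for P2ry13, 0.547% to 8.45% for Cx3cr1, 0.947% to 5.69% for Tmem119 and 3.89% to 39.1% for Gpr34. For Siglech it would give 34.8% to 115% and for Sall1 22.1% to 123%, with the highest values in IgG replicate 2 and CD40. Where Sall1 was at 0, a floor of 3 UMIs corresponds to 5.20 CPM in IgG replicate 1 and 1.99 CPM in BP replicate 2.

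**Figure D3:**
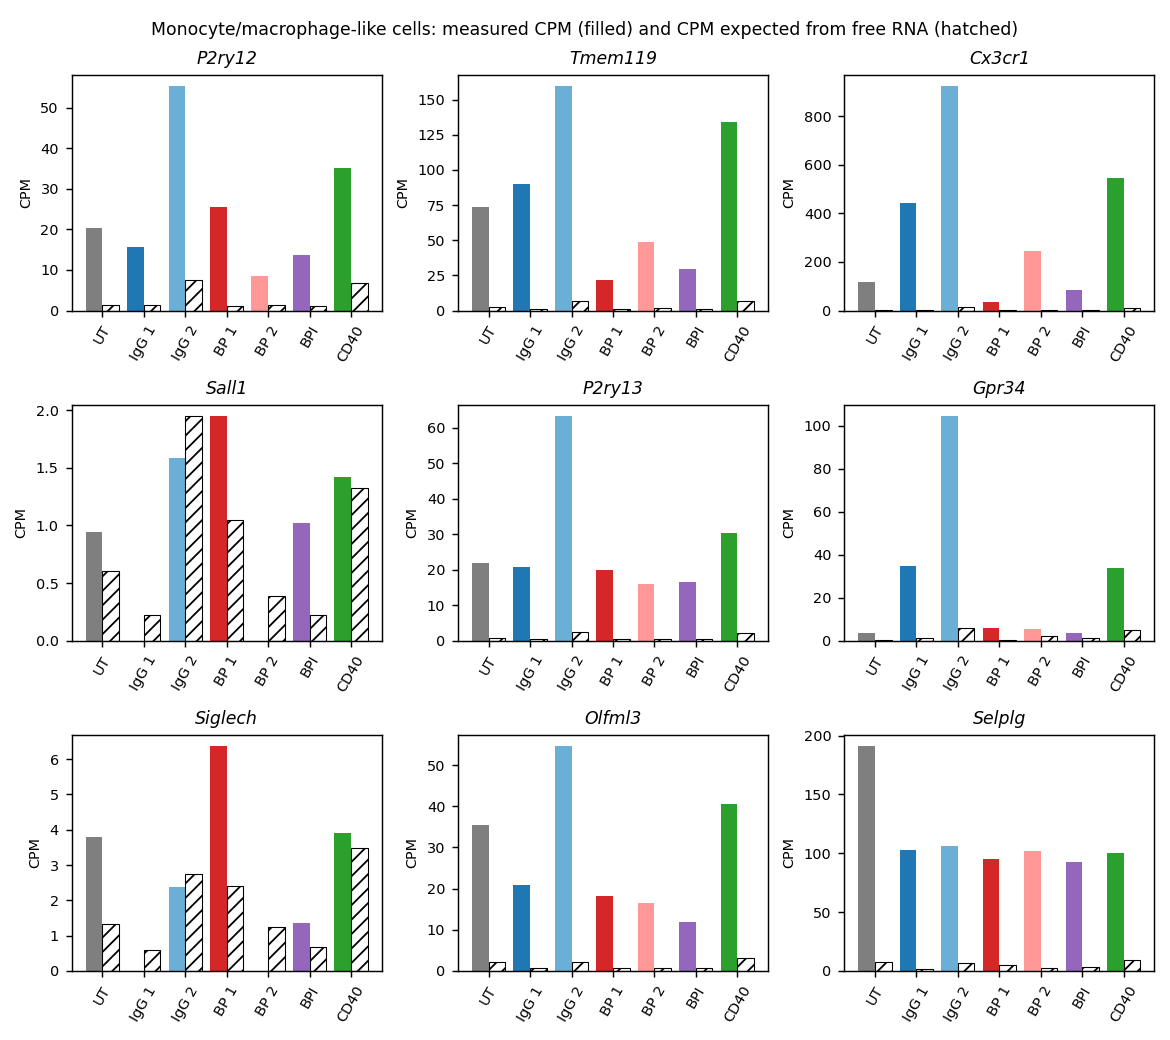
Level of each gene in monocyte/macrophage-like cells (filled bars) beside the level that free RNA alone would give (hatched bars), in CPM, in the 7 libraries. Gpr34, Tmem119 and Cx3cr1 are higher in the IgG and CD40 libraries than in BP and BPI, and for Siglech and Sall1 the hatched bars reach 34.8% to 115% and 22.1% to 123% of the filled ones where UMIs were seen.

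Other microglia genes were mixed in the same cells. Slc2a5 and Adgrg1, at 15.7 to 79.2 and 37.1 to 196 CPM in microglia-like cells, were at 0 to 0.664 and 0 to 1.58 CPM in macrophage-like cells. Fcrls, at 5.77 to 166 CPM in microglia-like cells, was at 0 to 6.64 CPM in macrophage-like cells of UT, BP and BPI. It was at 53.8, 174 and 55.1 CPM in those of both IgG libraries and CD40. In IgG replicate 2, Fcrls was thus no lower in macrophage-like than in microglia-like cells (174 against 166 CPM). When cells with at least 3 UMIs of the non-member microglia markers were left out, Gpr34 was at 0 in both IgG libraries, though 29 and 7 cells remained there, and at most 15.2 CPM elsewhere. Tmem119 was then at 71.9 and 0 CPM in IgG, 7.58 CPM in CD40, 12.6 and 11.5 CPM in BP, 6.59 CPM in BPI and 16.8 CPM in UT. IgG replicate 1 thus stayed above BP and BPI, while CD40 did not stay above BP. With 7 cells left in IgG replicate 2, its 0 cannot show whether the split of the libraries remained. P2ry12, P2ry13 and Olfml3 were at 0 in both IgG libraries. Cx3cr1 was lower too, at 245 and 218 CPM in IgG (444 and 926 CPM with all cells) and 447 CPM in CD40, against 20.6 and 94.1 CPM in BP, 31.9 CPM in BPI and 24.8 CPM in UT, so IgG and CD40 were above BP, BPI and UT for this gene, with the value of IgG replicate 2 resting on 8 UMIs. Deeper cells reach 3 UMIs more readily, and macrophage-like cells were deepest in IgG replicate 2 and CD40, with medians of 17493 and 17139 UMIs against 4700 to 8115.5 in the others. The same libraries also held the most microglia, and the part of either in the levels was not tested.

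No member passed the test between groups in macrophages with all libraries and the filter on low counts, but Gpr34 passed in 4 of 9 alternatives for BP and 4 of 7 for BPI. The replicate number as a block was among those for BP. None of them left out the cells with at least 3 microglia marker UMIs. Without those cells Gpr34 was at 0 in both IgG libraries, where few cells remained, so a change within macrophages was not tested. With 0 of 11726 genes (0%) called by edgeR's quasi-likelihood test with Benjamini-Hochberg adjustment for BP, BPI or CD40 against IgG, 916, 1278 and 116 genes had an unadjusted p under 0.05 and DESeq2 called 109, 188 and 4. Gpr34 had the largest member difference for BP, -3.58 (SE 0.57, unadjusted p = 2.62e-04, edgeR adjusted p = 0.28), and for BPI, -3.70 (SE 0.78, edgeR adjusted p = 0.16). Tmem119 differed by -1.73 (SE 0.55, edgeR adjusted p = 0.45) and Cx3cr1 by -2.08 (SE 0.90, edgeR adjusted p = 0.64) for BP. Both BP libraries lay below both IgG libraries for 6 of 9 members (Tmem119, Cx3cr1, P2ry13, Gpr34, Olfml3 and Selplg), against 21.9% of all genes. Of these, 3 were near ties with IgG replicate 1: Selplg (101.6 CPM in BP replicate 2 against 102.3), P2ry13 and Olfml3 (19.8 and 18.3 CPM in BP replicate 1, each against 20.8). BP replicate 2 exceeded IgG replicate 1 for 0 members, against 39.8% of all genes, but Sall1 and Siglech were at 0 in both. The 8 members tested had a median of -1.11, with 2 positive and 6 negative, against 0.037 over all genes. Class II genes stood at a median of 2.96 and interferon genes at 1.16, with 0 called. Without BP replicate 2, edgeR called 684 of 12147 genes (5.63%) for BP and 717 (5.9%) for BPI, with Gpr34, Tmem119 and Cx3cr1 among them in both: -3.67, -2.59 and -4.32 for BP (adjusted p = 0.0015, 0.0029 and 4.16e-04). Gpr34 was also called for BPI without IgG replicate 1, at -4.23 (edgeR adjusted p = 0.044). DESeq2 called Gpr34 for BP at -3.59 (adjusted p = 3.44e-04) and for BPI at -3.71 (adjusted p = 0.0057) with all libraries. With no filter on low counts edgeR called Gpr34 for BP at -3.44 (adjusted p = 2.58e-08) and for BPI at -3.65 (adjusted p = 7.04e-05), Cx3cr1 for both (-2.06 and -2.45) and Tmem119 for BP (-1.65).

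In single microglia with more interferon-response transcripts, 4 of the 9 members, P2ry12, Gpr34, Cx3cr1 and Siglech, made up a smaller share of the UMIs. These cells were also deeper, and the raw UMIs of a member did not fall in every library. When cells were ranked within clusters, 0 members passed. Cells of a library were thinned to 2000 UMIs, ranked by their UMIs of 40 interferon-response genes and divided into 3 equal sets, and the counts of the high and low sets were summed and compared with the library as a block, leaving the list's own genes out. UT, with 48 cells at that depth, was described and not tested. Olfml3 lay on both sides of no difference.

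P2ry12 went from 1521 CPM in the interferon-low set to 581 CPM in the high set of IgG replicate 1, and from 1347 to 1031 CPM in IgG replicate 2. It went from 344 to 224 CPM in BP replicate 1, from 2024 to 1147 CPM in BP replicate 2, from 1293 to 593 CPM in BPI and from 1230 to 922 CPM in CD40. The high set was lower in 6 of 6 libraries, at a median of 60.9% of the low set. Gpr34 went from 1031 to 565 CPM and from 965 to 705 CPM in IgG, from 126 to 67.9 CPM and from 1251 to 1006 CPM in BP, from 967 to 184 CPM in BPI and from 939 to 618 CPM in CD40. BPI kept 19.0% of Gpr34 and the others 54.1% to 80.4%, but the sets were not alike. Median interferon UMIs were 2 in the low and 28 in the high set of BPI and 6 and 17 in BP replicate 1, against 0 and 2 in IgG replicate 2 and 0 and 3 in CD40, where the sets partly divide ties. This limits any comparison of the size of the loss between libraries. Cx3cr1 went from 2676 to 1685 CPM and from 2807 to 2219 CPM in IgG, from 1384 to 960.0 CPM and from 3713 to 2692 CPM in BP, from 2591 to 1338 CPM in BPI and from 3002 to 2310 CPM in CD40. Siglech went from 828 to 300.4 CPM and from 609 to 542 CPM in IgG, from 307 to 146 CPM and from 889 to 843 CPM in BP, from 652 to 396 CPM in BPI and from 692 to 467 CPM in CD40. These 4 genes were lower in every one of the 6 libraries, although for Siglech the difference was small in BP replicate 2 and IgG replicate 2.

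In edgeR's quasi-likelihood test with Benjamini-Hochberg adjustment, 482 of 7464 genes (6.46%) passed, 186 of them lower (2.49%), and 4 of 9 members were among these. On the log2 scale P2ry12 fell by 0.72 (SE 0.13, adjusted p = 0.0054 in edgeR). Gpr34 fell by 0.78 (SE 0.18, adjusted p = 0.016), Cx3cr1 by 0.50 (SE 0.12, adjusted p = 0.020) and Siglech by 0.60 (SE 0.15, adjusted p = 0.027). Selplg at -0.39 (SE 0.12, adjusted p = 0.053), Sall1 at -0.44 (SE 0.14, adjusted p = 0.060) and Tmem119 at -0.33 (SE 0.11, adjusted p = 0.073) lay just outside the threshold, and P2ry13 was at -0.32 (SE 0.14, adjusted p = 0.17). Tmem119 and Selplg were lower in the high set of 6 of 6 libraries, Sall1 in all but BP replicate 2 and P2ry13 in all but BP replicate 1. Of all genes, 10.7% were lower in 6 of 6. Olfml3 had 93.6% to 121% of its low-set level and a difference of 0.06 (SE 0.11, adjusted p = 0.81), with 3 libraries on either side.

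**Figure D4:**
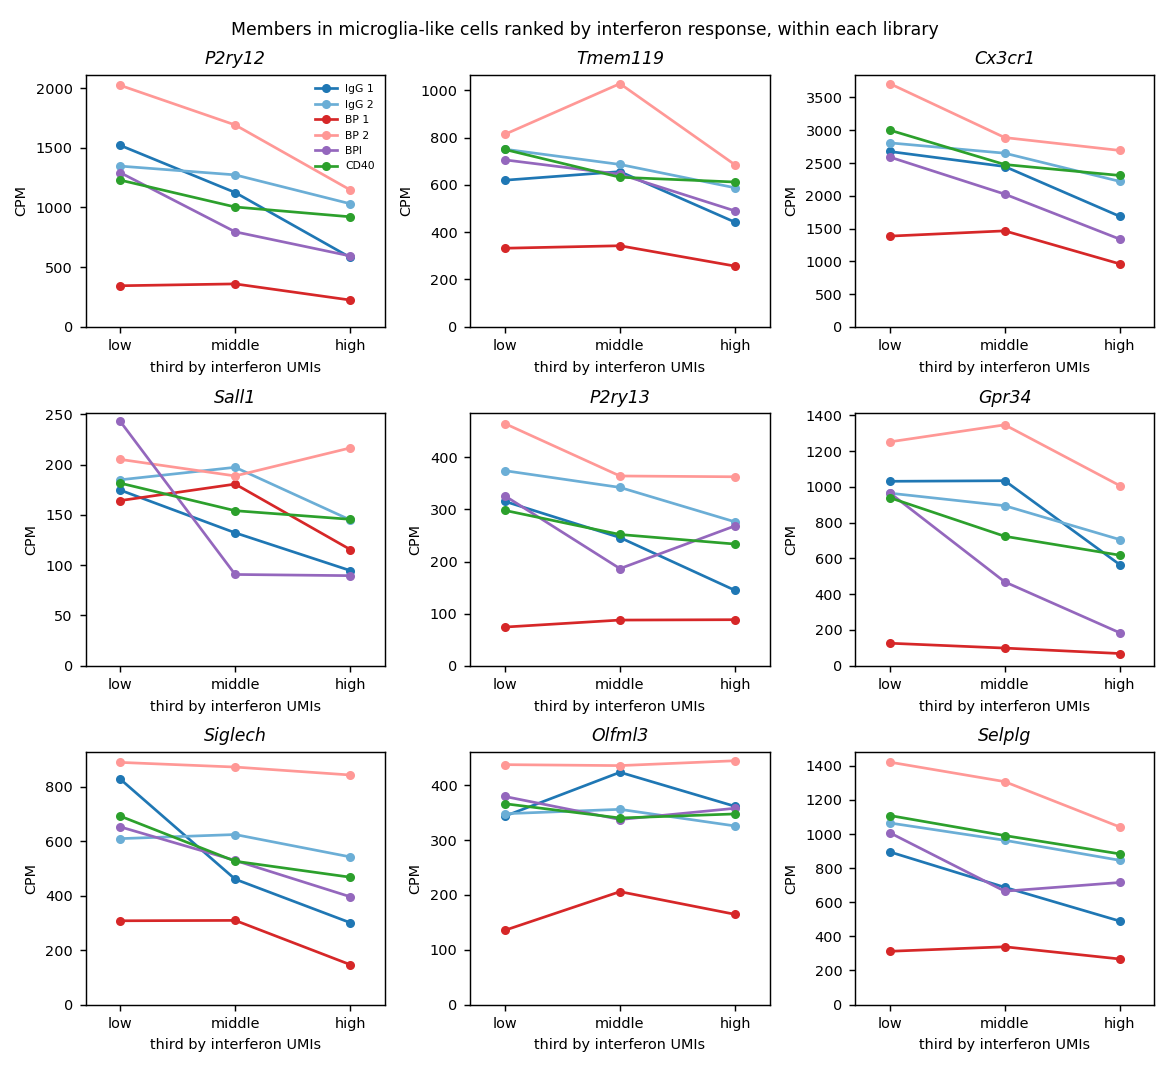
Level of each gene in CPM (vertical axis) in the low, middle and high set of microglia-like cells ranked by interferon-response UMIs (horizontal axis), with 1 line per library for 6 libraries. The lines of P2ry12, Gpr34 and Cx3cr1 end lower than they begin in all 6 libraries, while those of Olfml3 end at 93.6% to 121% of where they begin.

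Per cell, the 9 members summed in the thinned counts to a mean of 20.9 UMIs (SD 8.34 over cells) in the low set and 13.8 (SD 10.5) in the high set of IgG replicate 1, and 19.0 and 9.14 in BPI. The means were 22.6 and 20.6 in IgG replicate 2, 22.0 and 18.7 in BP replicate 2, 21.6 and 17.7 in CD40 and 7.56 and 5.13 in BP replicate 1. Spearman's rho between member and interferon UMIs over the cells of a library, which share that library and a fixed total, ran from -0.0883 in IgG replicate 2 to -0.553 in BPI. In the 48 cells of UT, P2ry12 was at 1672, 561 and 561 CPM over the 3 sets and Gpr34 at 996, 280.4 and 171 CPM.

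The interferon-high sets differed in other ways as well. In 5 of 6 libraries the Spp1-led cluster 17 made up more of the high set. It held 9.76% of the low and 73.2% of the high set in IgG replicate 1, 17.6% and 82.4% in BPI, 6.67% and 33.3% in BP replicate 2, 30.4% and 50.2% in CD40 and 27.3% and 42.4% in IgG replicate 2. In BP replicate 1, whose cells nearly all lay in cluster 28, it held 2.78% of the low and 1.39% of the high set, and P2ry12 was at 65.2% of its low-set level. Median UMIs were higher in the high set of every library, from 3089 to 6804 in IgG replicate 1 and from 11342 to 17825 in BP replicate 1. Monocyte/macrophage markers summed to 321 to 605 CPM in the low sets and 633 to 1569 CPM in the high sets. When cells were ranked within each cluster, P2ry12 differed by -0.19 and Gpr34 by -0.33 and no member passed (lowest edgeR adjusted p of a member 0.48), and within cluster 13 alone P2ry12 differed by -0.23 (edgeR adjusted p = 0.91). Without cells holding monocyte or T-cell marker UMIs P2ry12 differed by -0.58 (edgeR adjusted p = 0.11) and 0 members passed, but this left 46 cells of BP replicate 1, under the minimum of 60, so that the whole library dropped out as well, as it did within cluster 13. Without BP replicate 1 the call held for P2ry12 alone, at -0.74 (edgeR adjusted p = 0.025), and from sums of the thinned counts also for P2ry12 alone, at -0.61 (adjusted p = 0.030).

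Further homeostatic genes went the same way in the interferon-high cells. Of 23 tested outside the 9 members, 8 fell and 0 rose, with a median of -0.39 against -0.001 over all genes: Adgrg1, an adhesion receptor, fell by 0.86 (SE 0.16, edgeR adjusted p = 0.0049), Slc2a5, a fructose transporter, by 0.81 (SE 0.16, adjusted p = 0.0068) and Cst3 by 0.70 (SE 0.16, adjusted p = 0.017). In the TGF-beta list 3 of 11 fell and 0 rose (edgeR): the ligand Tgfb1 by 0.55 (adjusted p = 0.025), the receptor Tgfbr1 by 0.50 (adjusted p = 0.042) and the inhibitor Smad7 by 0.43 (adjusted p = 0.033). Of 12 immediate-early and stress genes 4 fell, including the transcription factors Jun by 0.78 and Fosb by 0.68. None of 18 disease-associated genes, 7 class II genes (Cd74 1.18, SE 0.38, edgeR adjusted p = 0.069) or 6 purine genes passed. The difference between BP and IgG in the high-low change was tested as an interaction, and 0 of 7464 genes (0%) passed in edgeR's quasi-likelihood test, with 132 at an unadjusted p under 0.05. The members' interaction terms ran from 0.05 to 0.72 (P2ry13, SE 0.36), with an adjusted p of 0.9999 and a median of 0.20 against 0.021 over all genes, and the unlike interferon sets of the libraries limit this comparison. Whether BPI or CD40 differed from IgG in this respect was not tested.

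Ranking the same cells by MHC class II transcripts gave no common direction for the members. In BPI, IgG replicate 2 and CD40 the class II-high cells had lower levels of 9 of 9 members (0 higher, against 48.6%, 38.8% and 37.3% of all genes). In BP replicate 1 and IgG replicate 1 they had higher levels of 8 of 9, all but Olfml3, and in BP replicate 2 of 5 of 9 (44.9% of all genes). In edgeR's quasi-likelihood test 3 of 7042 genes (0.0426%) passed and 0 members, whose differences ran from -0.24 for Gpr34 to 0.26 for Siglech (lowest edgeR adjusted p of a member 0.99). Lower values in the high set of 6 of 6 libraries were seen for 0 members and 4.08% of all genes. Only 1 gene of the fixed lists passed, the integrin Itgax of the disease-associated list, at 1.57 (SE 0.21, edgeR adjusted p = 0.0045).

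In BP replicate 1, Siglech measured 128.4, 240.2 and 463 CPM over the class II-low, middle and high sets, Tmem119 194, 315 and 492 CPM and Cx3cr1 859, 1425 and 1724 CPM. The high set held 360% of the low-set level for Siglech, 253% for Tmem119, 217% for Sall1, 201% for Cx3cr1, 187% for Selplg, 151% for P2ry12, 147% for Gpr34 and 108% for P2ry13, and 84.0% for Olfml3. Higher values in the high set were thus seen for 8 of 9 members in this library, against 41.9% of all genes. The same 8 members were higher in the high set of IgG replicate 1, against 43.2% of all genes, by less for 7 of them: Tmem119 was at 162% of its low-set level, Siglech at 134% and Sall1 at 104%, and P2ry13 alone was further up, at 130%. In BPI, Gpr34 measured 796, 551 and 218 CPM and Tmem119 785, 625 and 430.2 CPM, which left 27.3% and 54.8% in the high set. Gpr34 kept 116% in IgG replicate 1, 79.1% in IgG replicate 2, 76.8% in BP replicate 2 and 77.3% in CD40. Over cells, Spearman's rho between member and class II UMIs was 0.391 in BP replicate 1 and -0.387 in BPI, and between -0.231 and 0.0603 in the other 4.

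**Figure D5:**
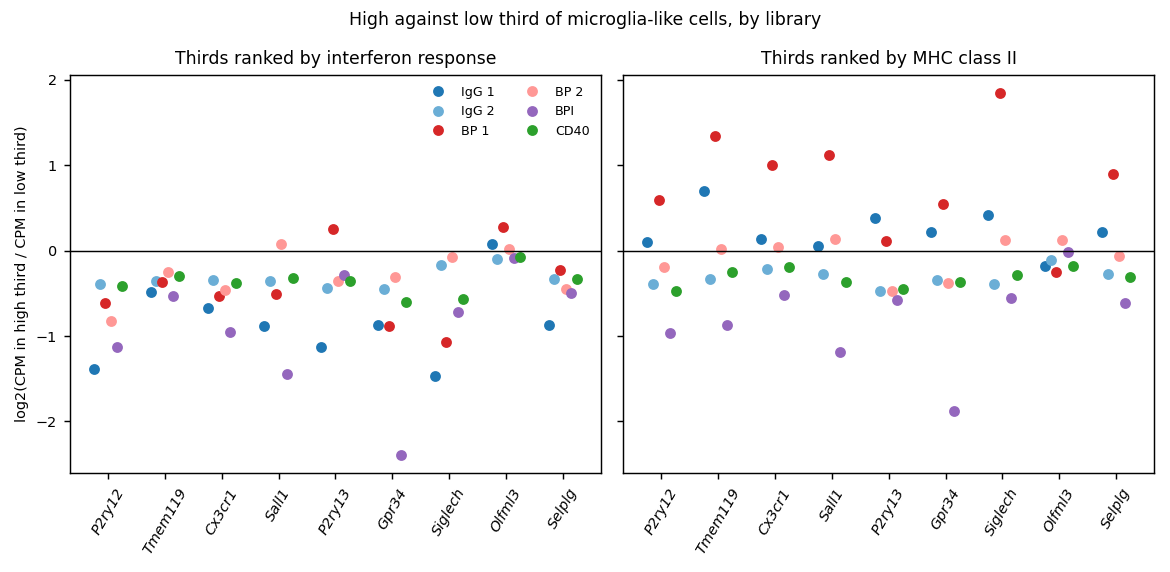
Ratio of the level in the high set to that in the low set (log2 scale) for the 9 genes in 6 libraries, with cells ranked by interferon-response UMIs or by MHC class II UMIs. Interferon values lie mostly under the line of no difference in all libraries, while class II values of BP replicate 1 and IgG replicate 1 lie above it for 8 of 9 genes, those of BP replicate 2 for 5, and those of IgG replicate 2, BPI and CD40 below it for all 9.

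The class II sets were of unequal meaning between libraries. The median class II UMIs at 2000 UMIs were 21.5 in the low and 91 in the high set of BP replicate 1, and 0 and 13 in BPI, while in the other 4 the low set was at 0 and the high set at 1 or 2, so that part of the ranking there rests on ties. In BP replicate 1 the class II-low cells were deeper, with a median of 20228.5 UMIs against 12136.5, and held more monocyte/macrophage markers, 738 against 332 CPM. The part of these in the rise of Siglech, Tmem119 and Cx3cr1 was not tested. As an interaction, the high-low difference of BP minus that of IgG was 1.14 (SE 0.46) for Siglech and 1.04 (SE 0.41) for Sall1, with an edgeR adjusted p of 0.72 for both and 0 of 7042 genes called (0%). Without BP replicate 2, edgeR called 291 of 9167 genes (3.17%), among them 6 members: Siglech at 2.07 (adjusted p = 1.29e-04), Sall1 at 1.45 (adjusted p = 0.0072), Tmem119, Cx3cr1, Selplg and P2ry12.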

How the data were processed

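Per the file headers, Cell Ranger 4 made the deposited UMI counts, while the submitters' processing notes name 7.0.1 and the build mm10. They cover all barcodes, not only cells, as checked on the values. The labels give V2 chemistry for all libraries, but UT draws on another barcode list. Another tumour model was not analysed here. The 9 members and all gene lists were chosen with earlier results of these data known.

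Cells were barcodes of at least 1000 UMIs and 500 genes, with mitochondrial UMIs at 15% or less, and the top Scrublet scores were removed at 0.8% per 1000 cells (4.50% to 8.44% of a library). Clustering used 2000 variable genes without the members, 30 principal components, 15 neighbours and Leiden resolution 1 (scanpy 1.11.5, igraph 0.11.9), with no batch correction, and clusters were named from marker lists. Levels are CPM, UMIs scaled to the class total, with exact 95% Poisson intervals. Shares of cells were taken after thinning to 1000 UMIs. Counts summed per library and class were tested with edgeR 4.0.16 (R 4.3.3, glmQLFit, TMM, filterByExpr, Benjamini-Hochberg over all genes, 0.05), with the 6 libraries of IgG, BP, BPI and CD40 in 1 fit and all 7 for UT. Splits of single cells used 2000 UMIs per cell, at least 60 cells per library and the library as a block. The fits were tested on simulated data with known changes, and the split recovered 100% of genes changed 2-fold among 7495. In the real interferon split some larger differences did not pass, such as Cd74 at 1.18 (SE 0.38) and H2-Ab1 at 1.13 (SE 0.37) on the log2 scale. The 100% thus need not hold for these libraries.

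Named were all members, per list up to 3 called genes with the largest change or else up to 2 with the highest level, and the 5 genes most like the members' mean. The values of 1 gene that this rule names are not reported here. Alternatives were DESeq2 1.42.0, no filter, leaving out each library, the replicate number as a block, other clusterings, depths and cell filters, and 2 added after the data were seen.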

Additional observations from a re-analysis of the deposited data

Results flagged for a closer look

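P2ry12 was found in cells outside the named classes at levels above the free RNA of the same library. In cluster 29, which stayed unnamed, the 101 cells of UT held P2ry12 at 161 CPM, where the free RNA held 12.3 CPM. The same cells, beside 51 microglia-like cells in UT, held the other members at 11.7 CPM (Sall1) to 449 CPM (Selplg), with Tmem119 at 364 CPM and Cx3cr1 at 173 CPM, each below the microglia-like level of UT. In cluster 37, also unnamed, the 25 cells of CD40 held P2ry12 at 186 CPM, where the free RNA held 77.6 CPM. Both P2ry12 values lay below the microglia-like level of their own library (801 CPM in UT and 1038 CPM in CD40), and these cells entered no test between groups.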

How the results depend on the processing

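Counts of called genes were the least stable results. DESeq2 called 38, 21, 2 and 65 genes in microglia (BP, BPI, BPI against BP, UT), 109, 188 and 4 in macrophages (BP, BPI, CD40) and 15 in the class II split. With no filter on low counts, edgeR called 309, 1.3e+02, 40, 46 and 312 genes in microglia (BP, BPI, CD40, BPI against BP, UT), 431, 633 and 53 in macrophages, 841 in the interferon split, 104 in the class II split, and 3 and 14 in their interactions. Leaving out 1 library at a time gave 0 to 672, 0 to 107, 0 to 0, 0 to 255 and 0 to 269 calls in microglia in the same order, 0 to 684, 0 to 717 and 0 to 2 in macrophages, 168 to 407 in the interferon split (interaction 0 to 9) and 1 to 11 in the class II split (interaction 0 to 291), a lone library being assumed to vary like the others.

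The interferon split gave 213 calls at 1000 UMIs, 254 at 4000 (where IgG replicate 1, BP replicate 2 and BPI had under 60 cells and dropped out), 48 from thinned sums, 25 without cells holding monocyte or T-cell marker UMIs, 92 within clusters and 2 within cluster 13, and its interaction 4 without marker cells, 1 within clusters and 1 within cluster 13. The class II split gave 0 at 1000 and 0 at 4000 UMIs, 5 with 4 equal sets, 1 with 2, 12 from thinned sums, 17 without marker cells, 10 within clusters and 0 within cluster 13. Its interaction gave 1 with 2 sets, 4 within clusters and 1 within cluster 13. Interactions at 4000 UMIs could not be fitted.

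P2ry12, Gpr34, Cx3cr1 and Siglech kept a negative interferon difference in all 19 alternatives, but lost the call in 3 (P2ry12), 5 (Gpr34), 8 (Cx3cr1) and 8 (Siglech) of them, at the smallest -0.19, -0.18, -0.09 and -0.08. Tmem119 gained a call in 1 (DESeq2, adjusted p = 2.71e-04), Selplg in 2 (DESeq2, 0.0012, and 4000 UMIs, 0.039) and Sall1 in 2 (DESeq2, 0.024, and 4 equal sets, 0.041), while their smallest differences were -0.013, -0.029 and -0.083. P2ry13 turned to 0.046 within clusters and 0.00080 within cluster 13. Olfml3 turned to -0.017 with interferon and class II genes out of the clustering, -0.0068 without marker cells and -0.0092 at 4000 UMIs. The Siglech class II interaction turned to -0.30 without marker cells and -0.28 within cluster 13, where BP replicate 1 dropped out in both and BP replicate 2 was the only BP library. The cause of the other changes was not tested. Replicate numbers did not pair the libraries: deviations of the same number correlated at 0.027 in microglia and -0.234 in macrophages. With the replicate block, 6 and 71 genes were called for BP, among them Gpr34 in macrophages at -3.33 (edgeR adjusted p = 0.012). Subtracting free RNA moved 47 of 63 microglial and 10 of 63 macrophage levels beyond their counting intervals, and a 2000-UMI minimum 2 and 0, while leaving out cells with 3 or more microglia marker UMIs moved 47 of 63 macrophage levels. The 2 within-cluster rankings were chosen after seeing the data. Depth limits Sall1 and Siglech in macrophages, and the 51 microglia of UT.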
